A study of Mus musculus with 37 samples.

Results

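Untreated Lgr5-EGFP+ cells sorted from jejunal organoids were compared with untreated whole jejunal organoids. The comparison held 7 of the 31 samples of the series: 4 samples of sorted cells (4 libraries) and 3 samples of whole organoids (5 libraries, technical replicate libraries of a culture summed). The members were the columns labelled as control in the table of the first sorted experiment and in the table of the whole-organoid experiment, and only genes listed in both tables were used. Whole organoids came from C57Bl6/J mice and the sorted cells from organoids of Lgr5-EGFP-IRES-CreERT2 reporter mice. Neither group received VIP (vasoactive intestinal peptide, the treatment of the study) or irradiation. The labels give each sample an identifier of its own, read here as that of a mouse. Organoid line below means the organoids made from such a mouse. The study's methods describe female and male adult mice without tying a sex or an age to a sample. Another set of 4 untreated, non-irradiated Lgr5-EGFP+ samples, sorted from other organoid lines in the irradiation experiment, is given beside the first set and is called the irradiation cohort. Sorting needed enzymatic dissociation at 37 °C and a live/dead stain, steps that the whole organoids are not described as having had. In the reporter line the EGFP and CreERT2 cassette is inserted in the Lgr5 locus, and that allele does not make normal Lgr5 mRNA, so the Lgr5 count of the carriers is not that of a wild-type locus. Compartment, mouse strain, organoid lines, experiment, handling and depth therefore differed together, and their parts in any difference cannot be told apart.

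The intestinal epithelium is renewed from stem cells at the crypt base that express Lgr5, a receptor for R-spondins which raises Wnt signalling. Their daughters divide as transit-amplifying progenitors and then become absorptive enterocytes or secretory cells, the latter being goblet cells, which make mucus, Paneth cells, which make antimicrobial peptides and lie next to the stem cells, and enteroendocrine and tuft cells. A whole organoid holds all of these, from crypt-like buds to a villus-like surface with brush border enzymes, nutrient transporters and detoxifying enzymes. EGFP driven by Lgr5 also marks early progenitors, because the protein outlasts the transcript.

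The sorted samples held 592632 to 864670 UMIs (counted molecules, median 618642) and the whole organoids 3722716 to 5772166 (median 4899916), so a further fit used counts thinned to 592537 UMIs per sample over the shared genes. The tables shared 19667 genes, of which 8796 passed the filter on low counts. The edgeR quasi-likelihood test called 2861 of these at a Benjamini-Hochberg adjusted p of 0.05 or less, 32.5% of the genes tested. Of these, 1449 (16.5%) were higher and 1412 (16.1%) lower in the sorted cells, and 826 (9.39%) and 863 (9.81%) also differed at least 2-fold. At equal depth 295 of the called genes no longer passed the filter and were not tested. Of the other 2566, 2150 were called in the same direction, 1150 higher and 1000 lower, and 0 in the opposite one, where the thinned fit itself called 30.1% of 7674 genes tested. The CPM ranges of the groups did not overlap for 38% of the genes tested (17.2% higher and 20.8% lower in the sorted cells). Levels below are CPM, counts scaled to a common library size after TMM scaling of both sorted cohorts and the whole organoids together. The overlap of ranges was judged on these levels, while each fold change used the TMM factors of its own comparison. Scaling by library size alone moved the median of all genes by -0.31 on the log2 scale and the share of calls that were higher from 50.6% to 28.0% (991 higher and 2553 lower), so directions are relative to the TMM scale. The whole-organoid sample of replicate 3, the only one of its group with a single library, stood apart: its log CPM correlated less well with the other whole-organoid samples (lowest r 0.925) than those did with each other (0.988). Without it 3987 genes were called, and values without a sample are given for named fold changes that it moved by over 1.5 times.

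Lgr5 itself (chr10:115450311-115587780, minus strand, GRCm38) was not higher in the cells sorted for its reporter. Its level was 51.9, 41.6, 15.7 and 41.6 CPM in the 4 sorted samples and 90.2, 76.8 and 41.2 CPM in the 3 whole-organoid samples. The ranges overlapped only in the sample of whole-organoid replicate 3, and the log2 fold change of -0.84 (SE 0.33) missed the threshold (adjusted p = 0.063). It passed without whole-organoid replicate 3 (log2 fold change -1.10, adjusted p = 0.00133). The value in the sorted cells rests on 8 to 34 UMIs per sample, and the share of the reporter allele in it was not tested. In the irradiation cohort Lgr5 was lower still, at 12.1 to 27.3 CPM, and there the difference from whole organoids passed (log2 fold change -1.84, SE 0.32, adjusted p = 0.000785).

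Other genes of the crypt base stem cell were higher in the sorted cells. Olfm4, a secreted glycoprotein of crypt base cells (chr14:79984081-80023139), was at 5030.3, 3825, 5588 and 3828 CPM in the sorted samples and at 1446, 1183 and 3396 CPM in whole organoids. All 4 sorted samples lay above all 3 whole-organoid samples, of which replicate 3 was the highest, and the difference came to 1.21 on the log2 scale (SE 0.31, adjusted p = 0.00765). Without whole-organoid replicate 3 it was 1.81. Ascl2, the Wnt-driven transcription factor of the stem cell program (chr7:142966829-142969264), was at 164, 197, 299 and 258 CPM against 137, 143 and 157 CPM, again without overlap but by less (log2 fold change 0.67, SE 0.20, adjusted p = 0.0179). The Ascl2 call was lost under 7 of 20 alternatives, among them leaving out sorted replicate 3 (adjusted p = 0.0740) or 4 (0.0691), or whole-organoid replicate 1 (0.0829) or 2 (0.0502), and scaling by library size alone (0.104). The 7 include a test against a log2 fold change of 1, which a gene with a smaller change cannot pass. That test is also counted in the later numbers of alternatives that lost a call. Gkn3 showed the largest stem marker difference, with 128, 77.2, 122 and 54.2 CPM against 30.9, 25.5 and 38.6 CPM (log2 fold change 1.61, SE 0.28, adjusted p = 0.000484). Igfbp4, which binds insulin-like growth factors, was 2.05-fold higher and Ephb3, an ephrin receptor that keeps cells in place along the crypt, 2.82-fold higher, both without overlap between the groups, although the call of Igfbp4 was lost under scaling by library size alone.

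Over the list of 30 stem cell markers, 26 were tested. 6 were higher, adding Cd44 (log2 fold change 0.73) to the 5 above, 2 were lower and 18, Lgr5 among them, were not called, against 16.5% and 16.1% of all genes. At equal depth 5 of the 6 rises and both falls held. The median log2 fold change of the list was 0.24, against -0.08 for all genes tested, and it turned to -0.06 under scaling by library size alone. The members that fell were Pdgfa, a growth factor, with 161, 162, 167 and 114 CPM against 248, 202 and 464 CPM (log2 fold change -0.98, SE 0.25, adjusted p = 0.00759), and Cdk6, a G1 kinase, with 41.6 to 80.8 CPM against 62.1 to 126 CPM (log2 fold change -0.79, SE 0.28, adjusted p = 0.0415), a call lost under 9 of 20 alternatives, among them DESeq2 and leaving out sorted replicate 1, 3 or 4 or whole-organoid replicate 1 or 2. Members not called included Smoc2, at 231 to 285 CPM against 186 to 316 CPM, and the Wnt feedback gene Axin2, at 70.7 to 121 CPM against 53.5 to 105 CPM, whose ranges overlapped.

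**Figure D1:**
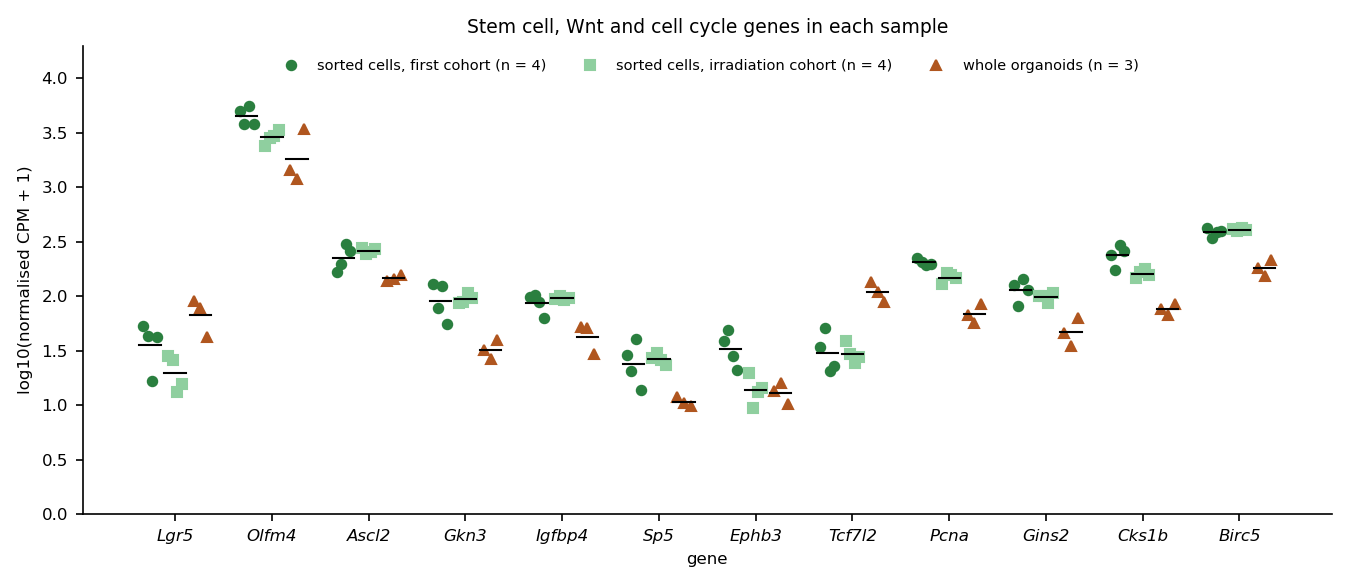
Level of 12 stem cell, Wnt and cell cycle genes in each sample, as log10 of normalised CPM plus 1, for sorted cells of the first cohort (circles, n = 4), sorted cells of the irradiation cohort (squares, n = 4) and whole organoids (triangles, n = 3), with the group mean of the plotted values as a bar. Lgr5 and Tcf7l2 lie lower in both sorted cohorts than in whole organoids on average, while Olfm4, Ascl2, Gkn3, Sp5, Pcna and Cks1b of the first cohort lie above all 3 whole-organoid samples.

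Of 23 Wnt receptors, feedback genes and effectors tested, 3 were higher and 2 lower, 13.0% and 8.70% against 16.5% and 16.1% of all genes. Sp5, a zinc finger factor that is a direct target of Wnt and beta-catenin, was at 27.7, 19.6, 39.3 and 12.6 CPM in the sorted samples and at 10.9, 9.47 and 8.88 CPM in whole organoids, with no overlap (log2 fold change 1.34, SE 0.35, adjusted p = 0.00822). Wnt3, a ligand that Paneth cells make, was 2.02-fold higher with overlapping ranges, 14.5 to 29.5 CPM against 7.49 to 15.9 CPM (adjusted p = 0.043), and its call was lost under 9 alternatives, among them leaving out sorted replicate 1, 2 or 3 or whole-organoid replicate 1 or 2. The third member to rise was Ascl2, described above. Tcf7l2, the DNA-binding partner of beta-catenin in this epithelium, went the other way: 32.9, 50.2, 19.6 and 21.7 CPM against 133, 109 and 86.9 CPM (log2 fold change -1.74, SE 0.29, adjusted p = 0.000273). Pygo2, a cofactor of beta-catenin, also fell (log2 fold change -0.74), a call that did not hold at equal depth. In the Notch and secretory fate list 3 of 15 were higher and 0 lower. These were Hes6 (1.61-fold), the glycosyltransferase Lfng (log2 fold change 1.34) and Neurog3, the factor that commits cells to the endocrine fate (log2 fold change 1.67), but only the call of Hes6 held at equal depth, and that was lost without whole-organoid replicate 2 and under scaling by library size alone.

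The window before the start site of Sp5 is printed because it was the only one among 13 tested Wnt genes with a RefSeq window to hold the TCF/LEF letters ATCAAAG on either strand (searched from 250 bases before to 50 after the start). The letters stood in 2.48% of the 6851 windows of all genes tested and in 0 of 18 stem cell marker windows. The 250 bases before the start, at chr2:70474673-70474922 on the plus strand (RefSeq, GRCm38.p6), hold the match in the reverse orientation from position -104, shown in capitals:
Sp5: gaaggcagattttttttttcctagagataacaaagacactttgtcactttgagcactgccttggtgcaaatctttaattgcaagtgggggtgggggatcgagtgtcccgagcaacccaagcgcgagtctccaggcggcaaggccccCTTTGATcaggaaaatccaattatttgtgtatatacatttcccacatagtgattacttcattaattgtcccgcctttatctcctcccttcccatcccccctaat
A match is a description of the letters in the window and no evidence of binding.

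Part of the DNA replication genes were higher in the sorted cells and none of them lower by edgeR's test. Of 51 tested genes of S phase, 19 were higher, 0 lower and 32 not called, against 16.5% higher among all genes, and 17 of the rises held at equal depth. Pcna, the sliding clamp of the replication fork, was at 222, 206, 191 and 197 CPM against 65.4, 55.9 and 83.0 CPM, which is 3.05-fold higher with no overlap (adjusted p = 1.42e-05). All 4 members of the GINS complex, part of the replicative helicase, were called higher, among them Gins2 at 80.8 to 143 CPM against 33.8 to 61.3 CPM (log2 fold change 1.32, SE 0.25) and Gins4 at 63.7 to 100.2 CPM against 31.3 to 43.9 CPM (log2 fold change 1.14, SE 0.23). The MCM genes of the same helicase differed less, and of Mcm2 to Mcm7 only Mcm5 was called (log2 fold change 0.69). The median of the list was 0.48, and it was above 0 under all 20 alternatives, with a lowest value of 0.19 under scaling by library size alone.

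Genes of G2 and mitosis were called higher more often than lower, and most were not called. Of 57 tested, 14 were higher (24.6%), 2 lower (3.51%) and 41 not called, against 16.5% and 16.1% of all genes. At equal depth 11 of the rises and 1 of the falls held. Cks1b, a cofactor of the cell cycle kinases (chr3:89415472-89418383, minus strand), was at 237, 173, 293 and 258 CPM against 75.1, 66.6 and 84.1 CPM (log2 fold change 1.69, SE 0.20, adjusted p = 1.42e-05). Birc5, which keeps the chromosomal passenger complex at the centromere, was at 344 to 424 CPM against 151 to 212 CPM (log2 fold change 1.12, SE 0.18, adjusted p = 0.000169), and the tubulin Tubb4b was 3.56-fold higher. The mitotic kinase Cdk1 was at 217 to 385 CPM against 85.6 to 137 CPM (log2 fold change 1.37). Cenpe, a kinetochore motor with a long transcript, fell: 77.7 to 102 CPM against 171 to 256 CPM (log2 fold change -1.25, SE 0.20, adjusted p = 0.000163). Mki67, the usual mark of proliferation, was at 80.5 to 137 CPM against 90.6 to 212 CPM and was not called (log2 fold change -0.68, SE 0.28, adjusted p = 0.0712). The median of the list was 0.10 and fell to -0.20 under scaling by library size alone.

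The cell cycle lists share letters in their start windows that were not used to choose them. The CHR letters TTTGAA, a mark of G2 and mitosis promoters, stood on either strand in 34 of 48 G2 and mitosis windows (70.8%) against 12.3% of all 6851 windows, and CCAAT in 79.2% against 39.8%. The E2F letters TTCCCGC stood in 17 of 37 S phase windows (45.9%) against 9.12%. Among the 13 called-higher G2 and mitosis genes with a window the CHR share was 69.2%, close to that of the list. Cks1b is printed because its RefSeq window holds a CHR match on each strand, although the GENCODE start of Cks1b, 89418383, lies upstream of both matches. Its 250 bases before the start, at chr3:89418292-89418541 on the minus strand (RefSeq, GRCm38.p6), hold the matches from positions -17 and, in the reverse orientation, -77, in capitals:
Cks1b: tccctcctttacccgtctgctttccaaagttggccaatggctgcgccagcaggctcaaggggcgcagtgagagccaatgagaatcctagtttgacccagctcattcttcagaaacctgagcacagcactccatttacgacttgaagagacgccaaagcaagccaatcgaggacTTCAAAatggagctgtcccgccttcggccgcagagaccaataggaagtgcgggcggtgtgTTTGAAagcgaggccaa

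The largest group difference was in the absorptive lineage. Of 39 tested genes of brush border hydrolases and transporters, 33 were lower in the sorted cells, 0 higher and 6 not called, against 16.1% lower among all genes, with a median log2 fold change of -2.13. At equal depth 28 of the 33 held. Together the 46 listed genes made up 0.108 to 0.174% of the UMIs of the sorted samples and 0.468 to 0.570% of those of whole organoids, ranges far apart. In bulk samples, fewer cells of a type and less RNA of that type per cell cannot be told apart.

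Alpi, the intestinal alkaline phosphatase of the brush border (chr1:87098002-87101606, minus strand), was at 1.73, 6.12, 0 and 3.61 CPM in the sorted samples and at 132, 101 and 204 CPM in whole organoids. It was near the detection limit in every sorted sample, with at most 5 UMIs, with a difference of -5.45 on the log2 scale (SE 0.44, adjusted p = 4.61e-07; -6.28 without sorted replicate 2). Slc5a1, the sodium-glucose transporter of the apical membrane (chr5:33104219-33162870), remained readily detected but was 4.39-fold lower, at 77.9, 85.7, 88.4 and 99.4 CPM against 398, 442 and 335 CPM (adjusted p = 6.01e-07). The apical anion exchanger Slc26a3 was at 6.92 to 18.1 CPM against 80.7 to 99.2 CPM (log2 fold change -2.97, SE 0.29). Sucrase-isomaltase (Sis) varied widely among the sorted samples, from 5.19 to 121 CPM, and all 4 lay below the 281 to 793 CPM of whole organoids (log2 fold change -3.05, SE 0.52). The 6 members not called were the glucosidase Mgam, the peptidase Naaladl1, the amino acid transporter chain Slc3a2 and the brush border structure genes Cdhr2, Eps8 and Myo7b.

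The start window of Alpi is printed because Alpi had the largest fall of the list and its window holds the letters CAAAGTC of the HNF4 motif, whose factors drive enterocyte genes. These letters share CAAAG with the TCF/LEF motif. They stood on either strand in 6 of 33 windows of the brush border list (18.2%), in 2 of 21 windows of the lipid list (9.52%) and in 3.65% of all 6851 windows. The 250 bases before the start of Alpi, at chr1:87101607-87101856 on the minus strand (RefSeq, GRCm38.p6), carry the match from position -19, in capitals:
Alpi: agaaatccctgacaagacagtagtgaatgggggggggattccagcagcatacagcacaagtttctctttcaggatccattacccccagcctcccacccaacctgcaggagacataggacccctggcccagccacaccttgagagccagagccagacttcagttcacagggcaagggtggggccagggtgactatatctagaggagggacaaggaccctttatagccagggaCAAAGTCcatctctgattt

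Genes of fat absorption followed the same direction. Of 28 tested, 23 were lower and 0 higher, against 16.1% and 16.5% of all genes. All 23 falls held at equal depth, and the median log2 fold change was -1.89. Fabp1, the fatty acid binding protein of absorptive cells (chr6:71199827-71205023), was at 50.2, 212, 102 and 634 CPM against 7417, 7690.2 and 5634 CPM. The sorted samples differed among themselves by over 10-fold, and even the highest lay far below the lowest whole-organoid sample (log2 fold change -4.77, SE 0.57, adjusted p = 1.42e-05; -5.79 without sorted replicate 4). Mogat2, which rebuilds triglycerides from absorbed fat, was at 7.35 to 27.1 CPM against 147 to 221 CPM (log2 fold change -3.67, SE 0.33, adjusted p = 1.15e-06). The apolipoprotein Apoa4, which coats chylomicrons, was at 29.5 to 216 CPM against 778 to 999 CPM (log2 fold change -3.01, SE 0.45; -3.68 without sorted replicate 2). Hnf4g, a nuclear receptor of enterocytes, was at 12.1, 24.5, 11.8 and 12.6 CPM against 114, 124 and 119 CPM (log2 fold change -2.87, SE 0.27, adjusted p = 1.54e-06).

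Detoxification and retinoid metabolism had a median log2 fold change of -2.29. Here 34 of 37 tested genes were lower and 0 higher, against 16.1% and 16.5% of all genes. At equal depth 33 of the falls held. Adh1, an alcohol and retinol dehydrogenase (chr3:138260991-138290698), was at 48.5, 80.8, 80.5 and 182 CPM against 1305, 1352 and 1456 CPM (log2 fold change -3.79, SE 0.31, adjusted p = 4.61e-07). The carboxylesterase Ces2e was 5.06-fold and the sulfotransferase Sult1b1 6.86-fold lower, without overlap. The cytochromes P450 fell further but varied in whole organoids. Cyp2c29 was at 3.46 to 41.6 CPM in the sorted samples and at 162, 155 and 1173 CPM in whole organoids, and its log2 fold change of -4.95 (SE 0.74) became -3.32 without whole-organoid replicate 3 and -5.98 without sorted replicate 4. Cyp2b10 showed the same high replicate, with 129, 132 and 585 CPM against 5.19 to 12.6 CPM, as did Cyp3a25, with 53.5, 40.7 and 161 CPM against 0 to 5.42 CPM. Without that sample the log2 fold change of Cyp2b10 went from -4.87 to -3.77 and that of Cyp3a25 from -4.84 to -4.00. The sulfotransferase Sult6b2 was at 42.8, 36.1 and 114 CPM in whole organoids, and the 4 sorted samples held 1 UMI of it in all. Summed over the list, the genes held a mean of 1.10% of UMIs in whole organoids, with whole-organoid replicate 3 the highest and a lowest value of 0.839%, against 0.141 to 0.244% in the sorted cells. Of the villus tip genes 3 of 7 tested were lower (42.9%) and 0 higher. Among the 3 was the keratin Krt20 (7.32-fold).

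**Figure D2:**
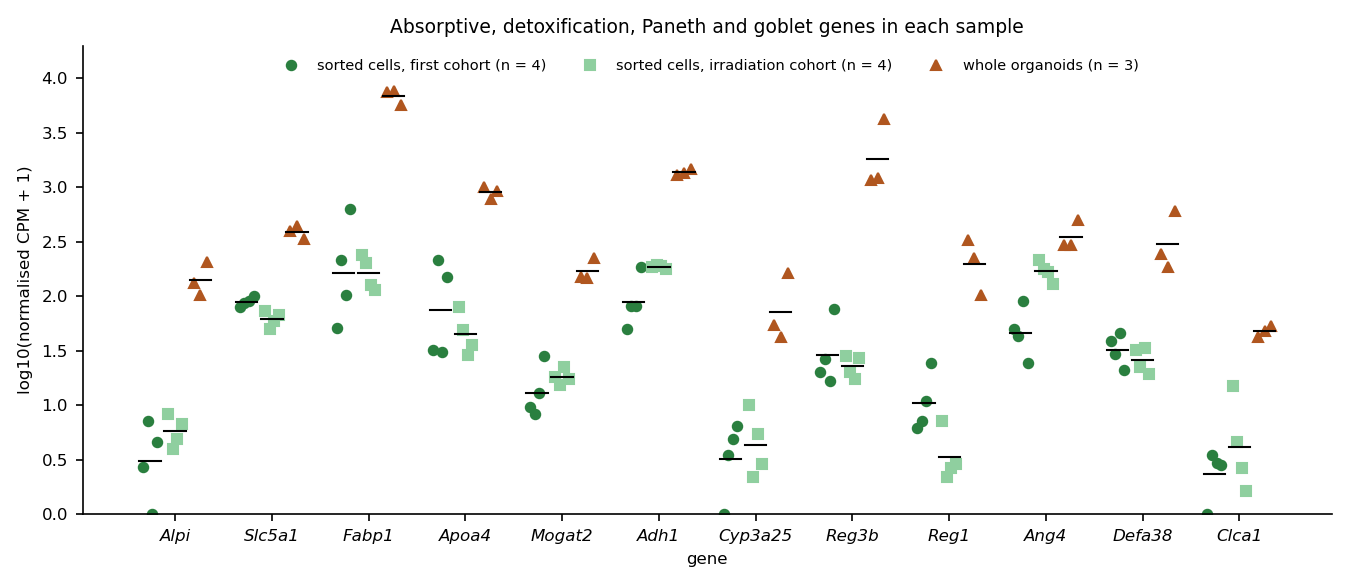
Level of 12 absorptive, detoxifying, host defence, Paneth and goblet genes in each sample, as log10 of normalised CPM plus 1, with the same symbols as the plot of stem cell genes and the group mean of the plotted values as a bar. All 4 samples of the first sorted cohort lie below all 3 whole-organoid samples for each of the 12 genes, and the highest sorted value of Fabp1 is 634 CPM against a lowest whole-organoid value of 5634 CPM.

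Genes of surface host defence, made by enterocytes and secretory cells, were lower in 9 of 11 tested and higher in 0. Of all genes 16.1% were lower and 16.5% higher. The median log2 fold change of the list was -2.08. Reg3b, an antibacterial lectin (chr6:78370657-78373466), was at 19.0, 25.7, 15.7 and 75.9 CPM against 1164, 1206 and 4177 CPM. The groups lay over 10-fold apart, and whole-organoid replicate 3 was again the highest (log2 fold change -5.98, SE 0.52, adjusted p = 8.60e-07; -5.12 without that sample and -6.71 without sorted replicate 4). Its relative Reg1 was at 5.19 to 23.5 CPM against 329, 225 and 102 CPM, so here the same replicate was the lowest of its group (log2 fold change -4.32, SE 0.45; -4.97 without sorted replicate 4). Il18, a cytokine of epithelial cells, was at 40.4, 38.8 and 63.2 CPM in whole organoids and in the sorted samples rested on 3 UMIs in all.

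Paneth cell markers were also lower, although these cells border the stem cells in the crypt. Of 22 tested, 12 were lower (54.5%) and 1, Wnt3, was higher, against 16.1% and 16.5% of all genes. The median log2 fold change was -1.23, and 11 of the falls held at equal depth. Ang4, an antimicrobial ribonuclease (chr14:51763878-51773590), was at 48.5, 41.6, 88.4 and 23.5 CPM against 291, 292 and 498 CPM (log2 fold change -2.83, SE 0.31, adjusted p = 6.64e-06). The alpha-defensin Defa38 was 10.3-fold lower, at 19.9 to 45.2 CPM against 185 to 599 CPM, with a log2 fold change of -3.37 that became -2.71 without whole-organoid replicate 3. Near-identical defensin genes share reads, so values of single members are uncertain. Lyz1, the lysozyme that usually marks Paneth cells, was not called: 855, 928, 1742 and 650.4 CPM against 1145, 984 and 3069 CPM, overlapping ranges (log2 fold change -0.71, SE 0.36, adjusted p = 0.149). Paneth markers summed to 0.560 to 1.59% of UMIs in the sorted samples and 1.54 to 2.84% in whole organoids, which just overlapped.

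Among goblet cell markers 3 were higher and 4 lower of 19 tested (15.8% and 21.1%, near the 16.5% and 16.1% of all genes), and all 7 calls held at equal depth. The lower members included the mucin Muc2, at 22.5 to 36.1 CPM against 85.0, 126 and 45.7 CPM (log2 fold change -1.46, SE 0.32), and Clca1, a secreted mucus-processing protease, at 0 to 2.45 CPM against 41.6, 47.2 and 52.7 CPM (log2 fold change -4.79, SE 0.45, adjusted p = 1.57e-06). The higher members were Fxyd3, a regulator of the sodium pump, at 116 to 192 CPM against 49.3 to 79.1 CPM (log2 fold change 1.31, SE 0.23), Agr2, which folds mucins (1.65-fold), and the chemokine Ccl9 (1.80-fold), the last 2 with overlapping ranges. The calls of Agr2 and Ccl9 were lost under 6 and 7 alternatives, among them leaving out sorted replicate 2 or whole-organoid replicate 1 or 2, and also sorted replicate 3 for Agr2 and 4 for Ccl9.

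Enteroendocrine markers gave 5 rises and 1 fall among 19 tested (26.3% and 5.26%, against 16.5% and 16.1% of all genes), but at equal depth only Pyy and Gip held. Pyy, a gut hormone, was at 26.0, 20.8, 96.2 and 32.5 CPM against 8.10, 10.2 and 4.70 CPM (log2 fold change 2.46, SE 0.47, adjusted p = 0.000864; 1.76 without sorted replicate 3). Gip, the hormone of K cells, fell: 41.5, 13.5, 62.9 and 3.61 CPM against 97.5, 124 and 93.7 CPM (log2 fold change -1.83, SE 0.44, adjusted p = 0.00524; -2.43 without sorted replicate 3), a call that DESeq2 did not make. Summed, the list made up 0.0887 to 0.264% of UMIs in the sorted samples and 0.153 to 0.162% in whole organoids. Of the tuft cell markers only 2 passed the filter and neither was called, which says little at this depth.

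Ribosomal protein genes were higher almost throughout. Of 77 tested genes of cytosolic ribosomal proteins, 74 were higher and 0 lower, against 16.5% and 16.1% of all genes. The median log2 fold change was 1.52, and 68 of the rises held at equal depth. They took up 10.3, 11.4, 13.7 and 13.2% of the UMIs of the sorted samples and 5.47, 5.77 and 5.68% of those of whole organoids. Rps16 (chr7:28350652-28353155) led the list at 417, 489, 603 and 573 CPM against 28.6, 26.4 and 35.5 CPM (log2 fold change 4.13, SE 0.21, adjusted p = 1.17e-08), and Rps25 and Rpl35 were 7.41-fold and 7.07-fold higher. Among named loci past the level filter, copies of these genes were among the 8 largest rises: Rpl21-ps8, at 34.6 to 66.8 CPM against 0.153 to 0.357 CPM, and Rps3a2, at 72.7 to 118 CPM against 1.61 to 3.13 CPM. Rps16, Rps7-ps3, Rps10-ps1, Rps15a-ps5 and Rps16-ps2 also stood among the 8. Reads of a ribosomal protein gene and its copies can be assigned to either, so single values here are uncertain. Over all annotated pseudogenes 278 of 298 tested were higher and 8 lower. Loci near 0 in whole organoids passed the filter through the sorted cells alone, so this count is in part set by the filter. How many did so was not counted. Annotated pseudogenes held 1.92 to 2.48% of UMIs in the sorted samples and 0.592 to 0.674% in whole organoids. The other of the 8 was Bex1, a small adaptor protein, at 55.4, 50.2, 58.9 and 61.4 CPM against 3.67, 4.47 and 9.14 CPM (log2 fold change 3.36, SE 0.33).

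Nuclear genes of the respiratory chain rose in 50 of 72 tested and fell in 3, against 16.5% and 16.1% of all genes. The median log2 fold change was 0.72, and all 50 rises and 3 falls held at equal depth. Ndufs5, a small subunit of complex I, was at 81.4, 85.7, 84.5 and 83.1 CPM against 19.0, 15.9 and 25.1 CPM (log2 fold change 2.10, SE 0.23, adjusted p = 7.37e-06), and the ATP synthase genes Atp5g1 and Atp5j were 3.13-fold and 2.89-fold higher. The 3 that fell were Atp5d (1.84-fold), Sdha (1.59-fold) and Ndufs1 (1.63-fold), the last 2 being large subunits of complexes II and I. Of 40 genes of ribosome biogenesis and Myc targets, 12 were higher (30%) and 0 lower. The 12 included the small nucleolar ribonucleoproteins Nop10 (2.70-fold) and Nhp2 (2.40-fold) and the polyamine enzyme Odc1 (2.82-fold).

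Transcript length moved with these rises. Across 8233 protein-coding genes with an annotated length, the fold change and the length of the longest annotated transcript had a Spearman correlation of -0.35, given as a description since the genes share the same 7 samples. The median log2 fold change was 0.85 for the 158 genes under 750 bases and -0.46 for the 1147 genes of 6000 bases or more, and without the ribosomal protein genes the shortest class still had 0.74. The tested ribosomal protein genes had a median length of 1059 bases and the respiratory chain genes of 1141 bases, against 3144 bases for all genes tested. Among lists with many genes called lower, the median was 3578 bases for the brush border, 2278 for lipid absorption, 2221 for detoxification, 2089 for host defence, 1770.5 for fetal-like genes and 703 for Paneth markers, the last below that of the ribosomal protein genes, and Fabp1, at 553 bases, was among the genes that fell. Among genes of at least 1500 bases, an alternative added after the data were seen, 23 of 23 ribosomal protein genes and 14 of 26 respiratory chain genes were higher, 30 of 38 brush border genes and 29 of 32 detoxification genes lower. Annotated ribosomal RNA sequences also took a larger share in the sorted cells, the nuclear CT010467.1 at 19197 to 37469 CPM against 6178 to 11574 CPM (log2 fold change 1.53) and the mitochondrial mt-Rnr2 at 28411 to 38002 CPM against 14394 to 19648 CPM (log2 fold change 1.04), while the nuclear non-coding RNA Malat1 was 2.41-fold lower. These 3 genes were chosen after their values were seen. The part of length and of RNA composition in the rises was not tested.

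**Figure D3:**
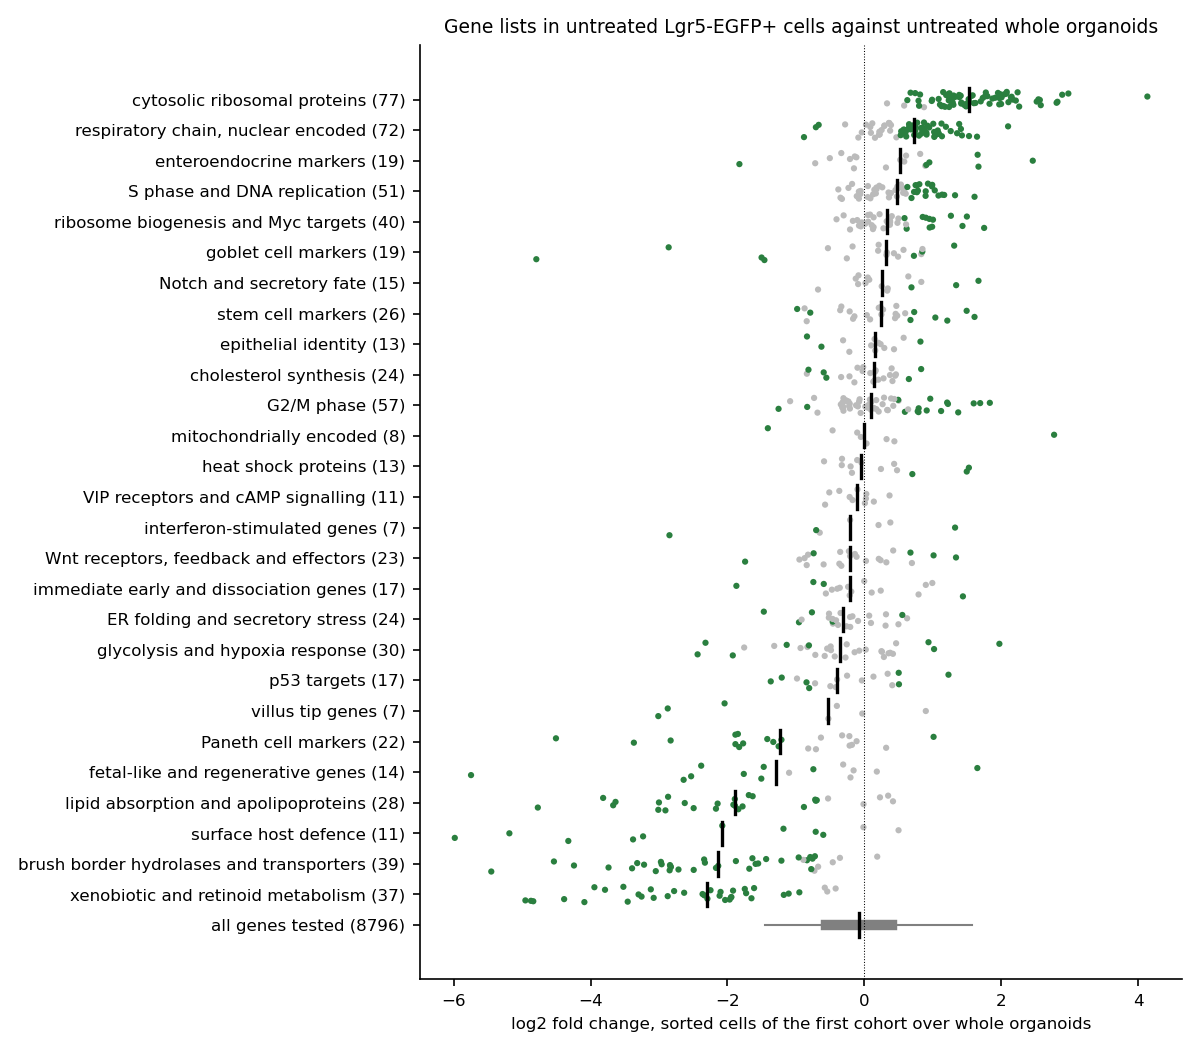
Log2 fold change of sorted cells of the first cohort over whole organoids for each tested member of 27 gene lists (green where called at an adjusted p of 0.05 or less, grey otherwise), with the list's median as a black bar, the number of tested members in brackets, and for all 8796 genes the middle 90% as a thin line and the middle 50% as a thick line. The medians of detoxification, brush border, host defence and lipid genes lie between -2.29 and -1.89, and those of ribosomal protein and respiratory chain genes at 1.52 and 0.72.

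Genes that respond to handling did not move together in the first cohort. Of 17 tested immediate early genes, which respond to dissociation within minutes, 1 was higher and 3 lower (5.88% and 17.6%, against 16.5% and 16.1% of all genes). The one called higher, Fos, was at 17.3, 45.3, 119.8 and 14.5 CPM against 15.6, 21.1 and 17.5 CPM, so that 2 of the 4 sorted samples lay above all whole organoids (log2 fold change 1.44, SE 0.49, adjusted p = 0.0342). Without sorted replicate 3 the log2 fold change of Fos was 0.60 (adjusted p = 0.286), and the call was also lost without sorted replicate 2 or whole-organoid replicate 1 (0.0729), under DESeq2 (0.133) and under scaling by library size alone (0.107). Of 13 heat shock genes 3 were higher (23.1%) and 0 lower, led by the mitochondrial chaperonin Hspe1 (2.88-fold) and Hsp90aa1 (2.82-fold). Of 17 p53 targets 3 were higher and 4 lower, 17.6% and 23.5%, near the shares of all genes. Fetal-like and regenerative genes, which mark an injured epithelium, were lower in 8 of 14 and higher in 1, but at equal depth 5 of the 8 falls held, and many members were near the detection limit: Msln was at 21.1 to 28.5 CPM in whole organoids and had 1 UMI in the 4 sorted samples. The exception was Lgals1, 3.14-fold higher. Of 30 glycolysis and hypoxia genes 3 were higher and 5 lower, 10% and 16.7%.

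The receptor through which VIP acts on this epithelium was measured at low levels. Vipr1, which encodes VPAC1 (chr9:121642716-121672954), was at 12.1, 19.6, 7.86 and 23.5 CPM in the sorted cells and at 21.2, 26.3 and 25.8 CPM in whole organoids. The ranges overlapped and the log2 fold change of -0.57 (SE 0.33) was not called (adjusted p = 0.202). None of 11 tested genes of VIP receptors and cAMP signalling was called in edgeR's test, against 32.5% of all genes. In the deeper irradiation cohort 2 of 14 were higher and 7 lower than in whole organoids, with a median log2 fold change of -0.56. There 26.5% of all genes were higher and 31.6% lower.

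Markers of cells that an organoid should lack were at or near 0. Of the listed markers of immune cells (17), endothelial cells (8), enteric neurons and glia (10) and red blood cells (5), 0 passed the filter, their sums were at most 11.6 CPM in any sorted sample and 12.9 CPM in any whole-organoid sample, and all 5 red blood cell markers were at 0. Of the mesenchymal markers only Vim passed (9.03 to 25.7 CPM against 9.65 to 10.2 CPM, log2 fold change 1.04, adjusted p = 0.0296), a call lost under 8 alternatives, among them leaving out sorted replicate 1, 2 or 3 or whole-organoid replicate 1 or 2. Of 13 genes of epithelial identity 10 were not called. The samples also differed in sex-linked transcripts: Xist was at 81.3 CPM in sorted replicate 4 and 334 CPM in whole-organoid replicate 3, which had the lowest Y-linked Eif2s3y of their groups (7.23 and 3.13 CPM), and at 1.22 to 11.6 CPM in the other 5 samples.

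The irradiation cohort offered a like comparison with other organoid lines, another culture schedule and another count table against the same 3 whole-organoid samples. The fold changes of the cohorts are therefore not independent and are only set side by side. In the comparison of the irradiation cohort 5924 of 10195 genes tested were called (58.1%), 2704 higher (26.5%) and 3220 lower (31.6%). At least 2-fold higher were 6.34% and at least 2-fold lower 19.3%. Thinned to 1525311 UMIs, a higher depth than in the first comparison, 53.9% were called, and for 53.8% the CPM ranges did not overlap. Of the absorptive lists, brush border genes had 0 higher and 42 lower of 42 tested with a median log2 fold change of -1.95, lipid genes 0 and 27 of 31 with -1.92, and detoxification genes 0 and 34 of 37 with -2.16. Paneth markers had 0 and 12 of 23 with a median of -1.10. S phase genes had 27 higher and 14 lower of 52 with a median of 0.45. Reg3b was at 16.5 to 27.3 CPM, Fabp1 at 113 to 236 CPM, Alpi at 3.00 to 7.29 CPM and Adh1 at 176 to 193 CPM, each below all whole-organoid samples. The stem cell list differed, with 6 higher and 12 lower of 27 and a median of -0.23. Of its members Gkn3 (log2 fold change 1.56), Igfbp4 (1.10) and Ascl2 (0.81) were higher there too. Wnt receptors, feedback genes and effectors had 4 higher and 12 lower of 25 with a median of -0.73, although Sp5 (1.37) was higher. The relation to transcript length was also present, with a Spearman correlation of -0.49 across 8214 genes.

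**Figure D4:**
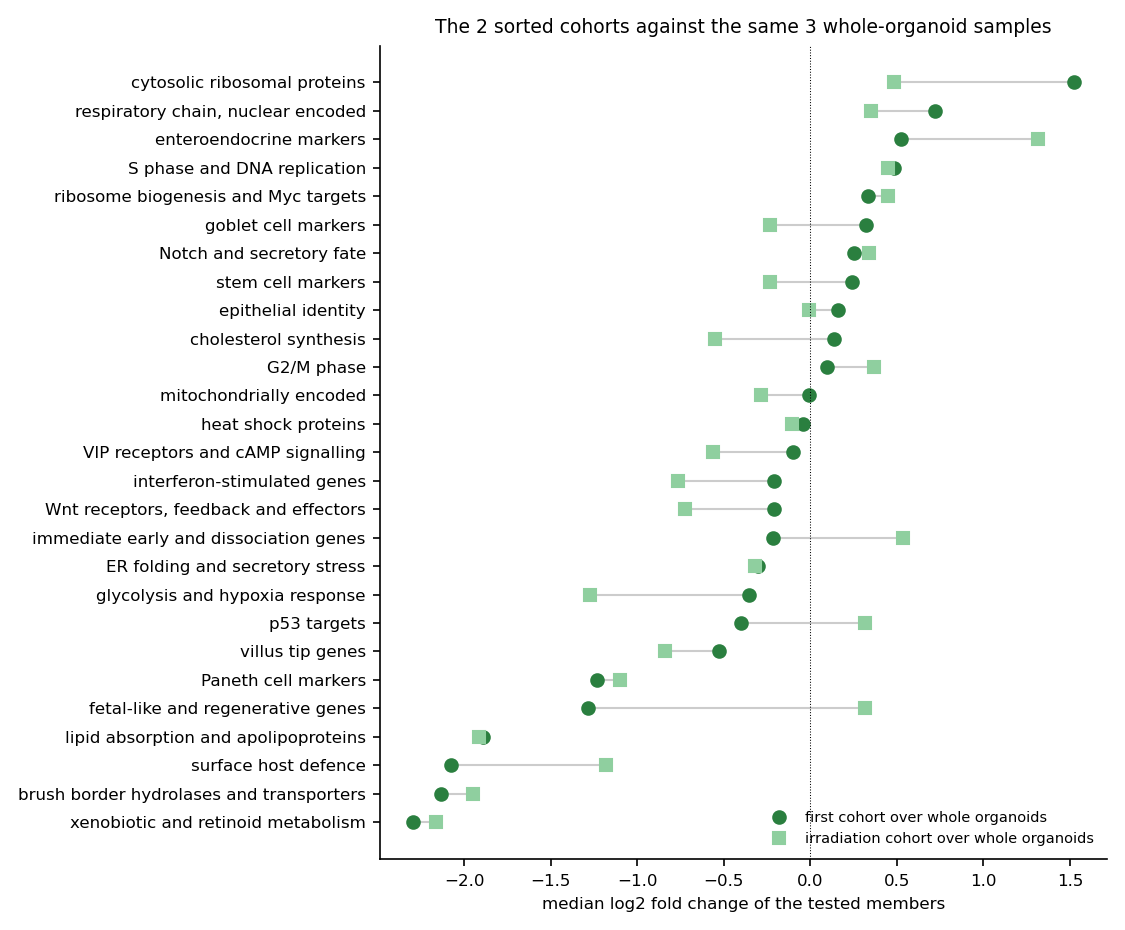
Median log2 fold change over whole organoids of the tested members of each gene list, for sorted cells of the first cohort (circles) and of the irradiation cohort (squares), both against the same 3 whole-organoid samples. Brush border, lipid and detoxification lists lie between -2.29 and -1.89 in both cohorts, while ribosomal protein genes lie at 1.52 and 0.48 and fetal-like genes at -1.28 and 0.32.

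The sorted cohorts were compared directly with each other, a contrast in which the labelled compartment is the same. It called 3147 of 8719 genes tested (36.1%), 1755 higher (20.1%) and 1392 lower (16%) in the first cohort, and 2086 (30.8%) at an equal depth of 592520 UMIs. At least 2-fold differences were 11.6% higher and 4.65% lower. Scaling by library size alone moved the share of calls that were higher from 55.8% to 33.9%. The ribosomal protein genes were higher in the first cohort in 61 of 78 (median log2 fold change 1.10), and Rps16 was at 417 to 603 CPM in the first cohort and 37.1 to 77.1 CPM in the other, with 26.4 to 35.5 CPM in whole organoids. Pseudogenes were higher in 220 of 280, a count with the same limit of the filter. Ribosomal protein genes took up 6.79 to 9.14% of UMIs in the irradiation cohort, between the other groups. The nuclear ribosomal RNA sequence CT010467.1 was at 6559 to 19726 CPM there, a range that overlapped that of whole organoids. Between the cohorts, fold change and transcript length had a Spearman correlation of 0.18 across 7731 protein-coding genes. Its sign was opposite to that of either cohort against whole organoids.

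Of the absorptive lists, 7 of 25 brush border genes were higher and 5 lower in the first cohort (median 0.13), with 20.1% and 16% of all genes beside them, and 4 of 26 lipid genes higher and 2 lower (median 0.12), while 11 of 32 detoxification genes were lower in the first cohort and 1 higher (median -0.40). Stem cell markers were higher in the first cohort in 14 of 26 and lower in 2 (median 0.54). Markers of endocrine and tuft cells were lower in the first cohort, 14 of 25 and 6 of 10, with 0 higher in either list. Against whole organoids, 22 of 28 endocrine and 13 of 15 tuft markers were higher in the irradiation cohort and 0 lower, beside 26.5% and 31.6% of all genes. Gip was at 521 to 911 CPM in the irradiation cohort, above both other groups, so that its difference from whole organoids was a fall in the first cohort (log2 fold change -1.83) and a rise in the other (2.76), with a difference between the cohorts of -4.62 (adjusted p = 2.96e-09). Immediate early genes were lower in the first cohort in 15 of 23 and higher in 2, and Fos was at 239 to 306 CPM in the irradiation cohort. Fetal-like genes were lower in 10 of 14 and higher in 1, and p53 targets lower in 8 of 20 and higher in 1. Against whole organoids, immediate early genes were higher in the irradiation cohort in 14 of 26 and lower in 2 (median 0.54). There p53 targets were higher in 9 of 24 and lower in 2. Cenpe and Pdgfa fell in the first cohort and rose in the other against whole organoids, with log2 fold changes of -1.25 and 0.68 for Cenpe and -0.98 and 0.89 for Pdgfa. Hnf4g was at 86.5 to 89.6 CPM in the irradiation cohort against 114 to 124 CPM in whole organoids (log2 fold change -0.45, adjusted p = 0.00469) and 11.8 to 24.5 CPM in the first cohort.

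**Figure D5:**
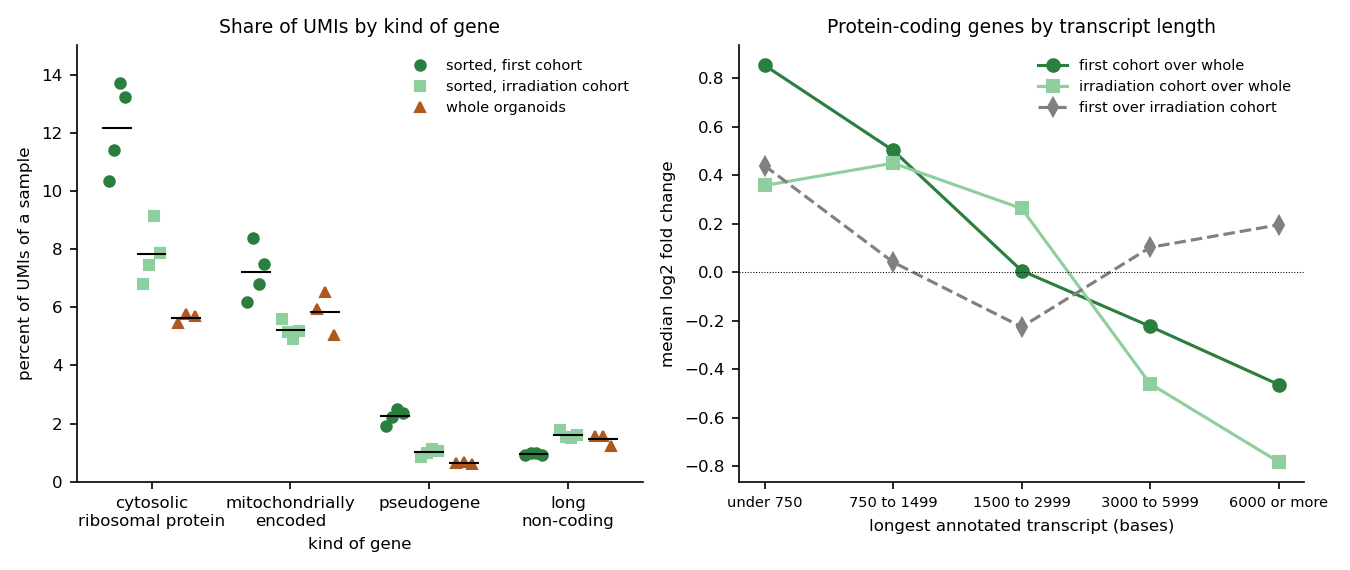
Left, share of a sample's UMIs in 4 kinds of gene in percent, for sorted cells of the first cohort (circles, n = 4) and of the irradiation cohort (squares, n = 4) and for whole organoids (triangles, n = 3), with group means as bars. Right, median log2 fold change of protein-coding genes in 5 classes of longest annotated transcript in bases, for each sorted cohort over whole organoids and for the first over the irradiation cohort, which falls from 0.85 to -0.46 in the first cohort and lies at 0.36 and -0.78 in the shortest and longest class of the irradiation cohort.

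The breadth of expression was compared at equal depth. The sorted samples had 13894.8 ± 330 genes with at least 1 UMI (SD, n = 4) and the whole organoids 13540 ± 322 (SD, n = 3), a difference that did not pass an exact two-sided permutation test (p = 0.286, where the smallest p that 4 against 3 samples allow is 0.0571). With at least 3 UMIs required the direction turned, with a difference of -299.5 genes, sorted minus whole (exact permutation p = 0.286). The 50 most abundant genes held 25.7 ± 1.81% of UMIs in the sorted samples and 19.6 ± 0.398% in whole organoids, without overlap, which gave that smallest exact permutation p.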

How the data were processed

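RNA of untreated whole jejunal organoids and of sorted Lgr5-EGFP+ cells was sequenced as 3′ libraries with unique molecular identifiers (UMIs). Per gene, the deposited values are unnormalised counts of UMIs that the authors made with the Drop-seq pipeline on GRCm38 (a build that the submitters' processing notes also name). Short or internally primed transcripts and near-identical copies can bias such counts. Count tables of separate experiments were joined on 19667 shared genes, and 7740 genes listed only for whole organoids (0.131% of their UMIs) and 833 listed only for the sorted cells (0.0192%) were not tested. Technical replicate libraries were summed.

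Counts were tested with edgeR 4.0.16 (R 4.3.3): TMM scaling, filterByExpr, quasi-likelihood test, Benjamini-Hochberg threshold 0.05. The filter keeps a gene that has enough counts in 1 group alone. Depth was 592632 to 864670 UMIs in the sorted cells, 3722716 to 5772166 in whole organoids and 1525664 to 1798669 in the irradiation cohort, and a fit on thinned counts was made beside the main one, at 592537 UMIs for the first comparison, 1525311 for the irradiation cohort against whole organoids and 592520 between the sorted cohorts. Intervals and p-values cover the spread between these samples. The code was tested on simulated data. Alternatives included DESeq2 1.42.0, other filters and scalings, a fold threshold, leaving out each sample and a replicate block. Replicate numbers are shared between groups, but the samples come from different organoid lines and same-numbered samples did not all deviate together, so the numbers do not pair them.

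Genes were named by rule: Lgr5, Olfm4, Ascl2 and Vipr1, the 8 largest rises and falls called also at equal depth without overlap and at 50 CPM or more in the higher group, and per list the 3 members of smallest p in each direction that were called also at equal depth. Some others were named after their values were seen, among them Lyz1, Mki67, Smoc2, Axin2, Cdk1, Cd44, Pygo2, Lfng, Neurog3, Mcm5 and the genes left uncalled. The members and lists were chosen with earlier results of these data known. Gene coordinates came from GENCODE M21 and start windows from RefSeq.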

Additional observations from a re-analysis of the deposited data

Results flagged for a closer look

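In the sorted cells, 11 of 151 sets of 4 values had a sample that stood far from the other 3 by Dixon's criterion. The criterion's chance rate of about 1 in 20 is for independent sets of normal values. These sets share the same 4 samples and some rest on 1 UMI, so the rates cannot be compared. Replicate 3 was high for the ribosomal protein copy Rps16-ps2 (198 CPM against at least 142 CPM in the other 3), for the hormone Pyy (96.2 CPM against 20.8 to 32.5 CPM) and for the nucleolar gene Nop10 (1112 CPM against 701 to 753 CPM), and low for the summed genes of ER folding and secretory stress (0.408% of UMIs against 0.461 to 0.472%). Replicate 4 was high for the lectin Reg3b (75.9 CPM against 15.7 to 25.7 CPM) and for Xist (81.3 CPM against 1.22 to 5.19 CPM), and low for Pdgfa (114 CPM against 161 to 167 CPM). It also held the single UMI of Sult6b2 (1.81 CPM, the others at 0). Replicate 2 was high for the nuclear receptor Hnf4g (24.5 CPM against 11.8 to 12.6 CPM) and held the single UMI of Msln (1.22 CPM, the others at 0). In replicate 1 the 50 most abundant genes held 23.0% of UMIs, against 26.6 to 26.7% in the others.

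Between the 2 cohorts of untreated Lgr5-EGFP+ cells, edgeR's test called 3147 genes. The experiments differed in organoid lines, count table and depth, and the study describes another culture schedule for the irradiation experiment. The parts of these in the difference cannot be told apart.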

How the results depend on the processing

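For the sorted cells against whole organoids, 20 alternatives were run. Of 101 named genes called, 51 were called under every alternative, 50 were lost under at least 1 and 0 were reversed. Many of the 50 were lost only under a test against a log2 fold change of 1. A gene with a smaller change cannot pass that test, but genes with a larger one were lost there too. Among them were Olfm4 (log2 fold change 1.21, adjusted p = 0.671 in that test) and Sp5 (1.34, 0.462). Scaling by library size alone gave 2553 lower genes, no filter on low counts 4808 calls (2805 lower), a test against a log2 fold change of 1 672 calls (415 higher, 257 lower), and genes of at least 1500 bases, added after the data were seen, 1625 (815 and 810), with fewer genes tested. Leaving out 1 sample gave 1951 (without whole-organoid replicate 1) to 3987 calls (without replicate 3), 1025 to 1972 higher and 926 to 2015 lower. The replicate block gave 3391 calls. Same-numbered samples correlated at -0.05, 0.43 and 0.32, and the numbers do not pair the organoid lines. DESeq2 gave 2777 calls.

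For the irradiation cohort against whole organoids, the fold threshold gave 793 calls (171 and 622), leaving out 1 sample 4524 to 7658 (1959 to 3567 higher, 2565 to 4091 lower) and the replicate block 5315. Between the sorted cohorts, scaling by library size alone gave 2396 lower genes, no filter 2111 lower, the fold threshold 383 calls (301 and 82), equal depth 2086 (1159 and 927), leaving out 1 sample 2521 to 3579 (1433 to 1986 and 1072 to 1593) and the replicate block 2965.

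The difference in genes detected per sample (354.75, or 169.25 to 458.25 without 1 sample) turned to -3148.58 on unthinned counts and to -299.5 with at least 3 UMIs. Among genes not called, the log2 fold change of Ddx3y was -1.05 to 0.068 without 1 sample, turning without whole-organoid replicate 2. That of Eif2s3y was -0.69 to 0.30 without 1 sample, turning without sorted replicate 4 (0.22) and whole-organoid replicates 1 (0.17) and 2 (0.30), and was 0.57 with the replicate block and 0.045 among longer genes. The causes were not tested. Low depth of the sorted samples limits genes near 3 UMIs.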
